A study of Mus musculus with 4 samples.

Results

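The 10 genes described here are the vascular endothelial growth factor (VEGF) family ligands Vegfa, Vegfb, Vegfc and Pgf, the platelet-derived growth factor (PDGF) ligands Pdgfa, Pdgfb, Pdgfc and Pdgfd, the angiopoietin Angpt2, and the decoy receptor Flt1. They were taken by gene symbol from a table of 54532 genes, and each symbol was found on 1 row, for a protein-coding gene. Positions below are those of the table, in mm10. RNA-seq had been made from bone marrow mesenchymal stem cells (BMSCs, stromal progenitor cells of marrow; the sources used here do not describe how they were isolated) of 4 C57BL/6J mice aged 1 month and labelled male. The 2 control mice were rhebFL/FL, with both copies of Rheb flanked by loxP sites, and the 2 mice labelled rhebCKO were littermates of the genotype Ucp1-cre; rhebFL/FL. The floxed alleles are therefore shared by both groups, and Cre driven by the Ucp1 promoter was used to delete Rheb in the brown adipocyte lineage. The comparison addresses which transcripts of marrow stromal cells differ when Rheb, an activator of mTORC1, is deleted in brown adipocytes.

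VEGF ligands act on receptor tyrosine kinases of endothelial cells. VEGF-A, encoded by Vegfa, binds the signalling receptor KDR, whereas placental growth factor, encoded by Pgf, and VEGF-B bind FLT1, which traps VEGF-A with high affinity and signals weakly. PDGF ligands act mainly on mesenchymal and mural cells through PDGFRA and PDGFRB, and angiopoietin 2 competes with angiopoietin 1 at the endothelial receptor TEK. In bone, VEGF-A from osteoblast-lineage cells supports vessel growth and bone formation, and PDGF-BB from preosteoclasts supports the vessels coupled to bone formation.

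Several facts of the libraries bear on the values. Total counts ran from 17425669 to 19001878 per library. Rheb was not lower in the libraries labelled rhebCKO: its level was 129.2 and 121.3 CPM there and 89.7 and 81.5 CPM in controls (edgeR log2 fold change 0.55 with SE 0.19, adjusted p = 1.00), where CPM is the usual count per library size after TMM scaling. Ucp1 had at most 1 count. Xist had 19502 and 31103 counts in the replicates 1 of the control and rhebCKO groups and 8 and 2 counts in the replicates 2. Ddx3y, a Y-linked gene, had 0 counts in the replicates 1 and 1945 and 1631 counts in the replicates 2, although all animals were labelled male. Replicate number thus coincides with this pattern of sex-linked transcripts in both groups. Ratios within each replicate number are therefore given for each of the 10 ligand and decoy genes. All 10 listed stromal markers were detected, but Lepr had only 0.360 to 0.606 RPKM (CPM divided by the summed exon length in kilobases), and macrophage markers were abundant in all libraries, with 10 of 10 detected and a summed level of 8417 to 11820 CPM. Lyz2 made up most of that sum, with 5162 to 7768 CPM. The leukocyte gene Ptprc had 148.8 to 322.2 CPM.

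Promoter sequence is shown for Vegfa and Pgf, the VEGF ligands with the most reads, for Pdgfd, whose level was lowest in a single library, and for Flt1, whose window held the most kinds of motif. RefSeq windows of GRCm38.p6 (250 bases before the start to 50 after it) were found for 8 of the 10 genes, 11 windows in all. Angpt2 and Pdgfb had no window and are named only. The 250 bases before the first listed start are printed 5′ to 3′, with matches to 5 motifs in capitals: the Sp1 box GGGCGG, the hypoxia response core spelled ACGTG or alternatively spelled GCGTG, the cyclic AMP element TGACGTCA and the TATA core TATAAA, each searched for on both strands. The Vegfa run is chr17:46032378-46032627, the Pgf run chr12:85177314-85177563, the Flt1 run chr5:147726012-147726261 (all on the minus strand), and the Pdgfd run chr9:6168236-6168485 (plus strand).
Vegfa: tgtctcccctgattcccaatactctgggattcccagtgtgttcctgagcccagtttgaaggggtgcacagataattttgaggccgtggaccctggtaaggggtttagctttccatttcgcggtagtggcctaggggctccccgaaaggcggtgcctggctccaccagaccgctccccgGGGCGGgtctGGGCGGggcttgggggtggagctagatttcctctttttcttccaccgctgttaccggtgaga
Pgf: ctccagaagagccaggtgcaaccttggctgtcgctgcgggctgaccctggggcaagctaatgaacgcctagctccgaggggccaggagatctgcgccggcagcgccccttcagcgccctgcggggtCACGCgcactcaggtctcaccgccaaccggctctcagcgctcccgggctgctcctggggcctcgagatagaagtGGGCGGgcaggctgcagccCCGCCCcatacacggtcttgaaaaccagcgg
Flt1: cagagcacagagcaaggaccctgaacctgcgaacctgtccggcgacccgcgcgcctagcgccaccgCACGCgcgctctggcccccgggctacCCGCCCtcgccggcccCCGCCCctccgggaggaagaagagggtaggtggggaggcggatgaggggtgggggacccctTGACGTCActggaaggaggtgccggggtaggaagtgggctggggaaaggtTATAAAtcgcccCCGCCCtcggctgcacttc
Pdgfd: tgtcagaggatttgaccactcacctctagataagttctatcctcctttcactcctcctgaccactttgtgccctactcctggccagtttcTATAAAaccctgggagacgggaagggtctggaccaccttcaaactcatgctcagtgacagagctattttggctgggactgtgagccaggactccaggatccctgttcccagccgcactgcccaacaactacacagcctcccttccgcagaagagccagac
The Vegfa run held 2 Sp1 boxes in 1 orientation, and the Pgf run held 2 in opposite orientations and 1 hypoxia core. The Flt1 run held 3 Sp1 boxes, 1 hypoxia core, a cyclic AMP element and a TATA core, the last beginning 31 bases before the start. The Pdgfd run held a TATA core alone, beginning 160 bases before the start. Over the 8 genes, 6 had an Sp1 box and 5 had a hypoxia core in at least 1 window. Vegfa, Pgf and Pdgfa had 2 windows each, and the hypoxia cores of Vegfa lay in its second window, which is not printed. No gene had a hypoxia core in more than 1 of its windows. The shares that follow are per window, so these counts per gene are not on the same scale. Of all 32851 windows, 35.7% held an Sp1 box, 43.8% either hypoxia core, 1.79% the cyclic AMP element and 13.6% the TATA core. GC content was 62.0% in the first Vegfa window, 66% in the first Pgf window, 70.7% in Flt1 and 56.7% in Pdgfd, against a median of 52.7% over all windows. These matches describe letters in the windows and do not show that a factor binds there.

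Levels per kilobase of exon placed Angpt2 and Vegfa at the top of the 10 genes. Over the 4 libraries Angpt2 had 58.1 ± 15.2 RPKM and Vegfa 52.8 ± 12.7 RPKM (SD, n = 4 for both), and their ranges overlapped, with Angpt2 above Vegfa in 3 of 4 libraries. Vegfa was above Pgf (28.7 ± 4.87 RPKM, n = 4) in every library, without overlap. Pgf and Pdgfb overlapped in range (Pdgfb 18.5 ± 4.16 RPKM, n = 4), although Pgf was above Pdgfb in 4 of 4 libraries. Pdgfb, Pdgfa, Pdgfc, Vegfb and Pdgfd followed in that order, from 18.5 down to 10.7 RPKM, and each overlapped in range with the next. Vegfc (1.79 ± 0.510 RPKM, n = 4) lay below Pdgfd in all libraries, and Flt1 (0.930 ± 0.0509 RPKM, n = 4) below Vegfc. Flt1 exons sum to 13504 bases in the table, against 1605 to 5089 for the other 9 genes, with exons of all its transcripts added together. Counts per gene do not separate the membrane-bound and the soluble form of FLT1, of which the soluble form is a circulating decoy.

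**Figure D1:**
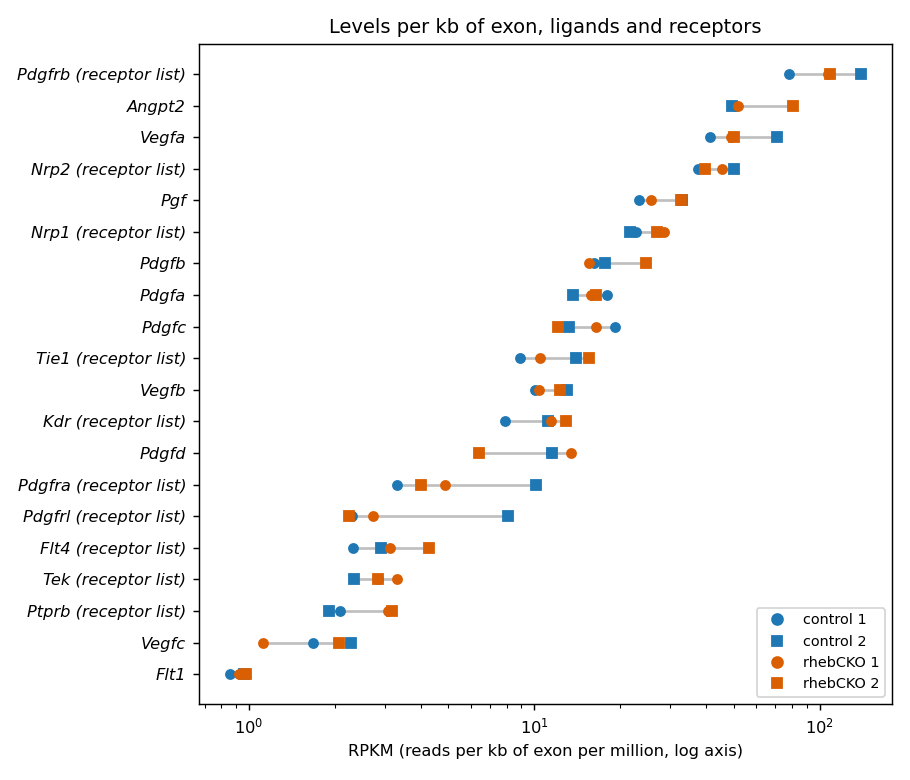
Level of the 10 ligand and decoy genes and of the 10 genes of the receptor list in RPKM on a log axis, 1 symbol per library (blue control, orange rhebCKO, circles replicate 1, squares replicate 2), with a line from the lowest to the highest library. Pdgfrb lies highest, Angpt2 and Vegfa overlap, and Flt1 is lowest at 0.862 to 0.977 RPKM.

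No ligand and no decoy receptor gene passed the test between the groups. edgeR's quasi-likelihood test over 14963 genes called 0 of the 10 genes at an adjusted p of 0.05 and 0 at an unadjusted p under 0.05. It called 0% of all genes, and 1.86% of all genes had an unadjusted p under 0.05. DESeq2 called 0 of the 10 and limma-voom 0 of the 10, with 0 at an unadjusted p under 0.05 by either, while DESeq2 called 0.0933% of the genes it gave an adjusted p. Over all genes limma-voom called 0 of 14963. An unadjusted p under 0.05 was found for 248 of those by limma-voom and for 271 of 26481 genes by DESeq2. The fitted value was higher in the libraries labelled rhebCKO for 5 genes and lower for 5, with a median log2 fold change of -0.00 over the 10 genes and -0.01 over all tested genes. The median size of the change, without sign, was 0.18 for the 10 genes and 0.15 for all tested genes. The groups did not overlap for 1 gene, Angpt2, with the libraries labelled rhebCKO above; that occurred for 10.8% of all tested genes, and the reverse, seen for none of the 10, for 11.3%. The smallest p that an exact permutation test allows for 2 against 2 libraries is 0.333, and the edgeR p-values borrow the variance of other genes. In bulk RNA, fewer cells of a type and less RNA per cell cannot be told apart.

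**Figure D2:**
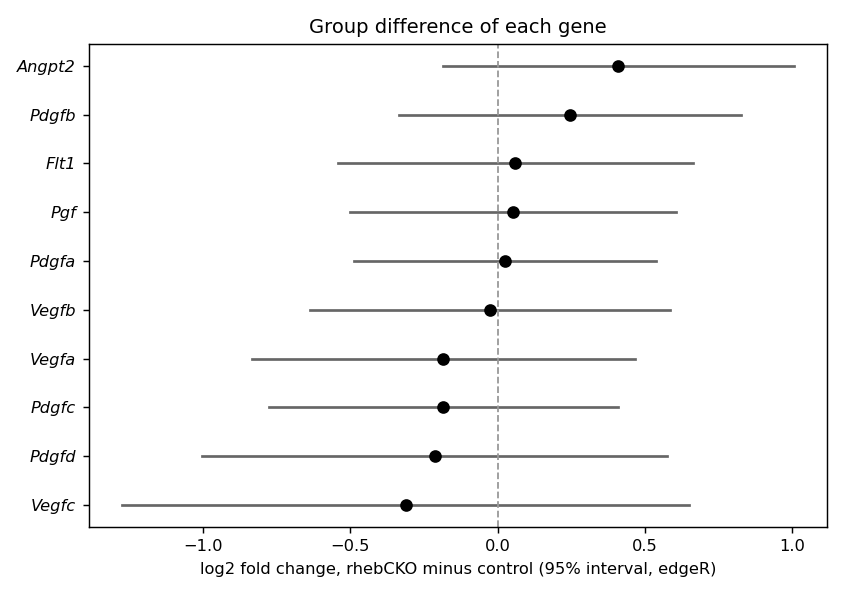
Log2 fold change (libraries labelled rhebCKO minus controls) of each of the 10 genes by edgeR, points with 95% intervals as lines. Every interval contains 0; Angpt2 has the highest value (0.41) and Vegfc the lowest (-0.31).

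Among the VEGF family ligands, Vegfa (chromosome 17, 46016993 to 46032369, minus strand) had 177.3 and 304.2 CPM in control replicates 1 and 2 and 209.1 and 214.8 CPM in the libraries labelled rhebCKO. Control replicate 2 alone stood above the rest, 1.42-fold over the next library, and the 2 libraries labelled rhebCKO lay between the controls. The log2 fold change of Vegfa was -0.18 (SE 0.28, 95% interval -0.83 to 0.46, adjusted p = 1.00 by edgeR), and it was 0.27 without control replicate 2. Comparing replicate 1 with replicate 1 gave a log2 ratio of 0.24, and replicate 2 with replicate 2 gave -0.50. Counting error does not cover the gap between the controls: the exact Poisson interval of Vegfa was 171.3 to 183.4 CPM in control replicate 1 and 296.4 to 312.2 CPM in control replicate 2.

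Control replicate 2 also stood apart in markers of osteoblasts, which are known to make VEGF-A. Alpl, the alkaline phosphatase of mineralising cells, had 122.0 CPM there and 20.5 to 34.7 CPM in the other libraries, and Ibsp, a bone sialoprotein, 51.5 CPM against 6.85 to 11.5 CPM. Sp7, an osteoblast transcription factor, had 30.9 CPM there against 3.40 to 7.53 CPM. The summed level of the 8 listed osteoblast markers was however lowest in that library (1141 CPM against 1378 to 1786 CPM). Spp1, which macrophages also express, had 868.2 CPM of that sum there and 1290 to 1684.5 CPM elsewhere. Of the 5 osteoblast markers tested, edgeR called 0 and DESeq2 1, against 0% and 0.0933% of the genes given an adjusted p. By edgeR 3 had an unadjusted p under 0.05 (1.86% of all tested genes), namely Alpl, Ibsp and Sp7. Those 3 were lower in the libraries labelled rhebCKO without overlap (11.3% of all tested genes lay below in this way). Their edgeR log2 fold changes were -1.80, -2.13 and -2.15, and -0.61, -0.67 and -0.78 without control replicate 2. Bglap2 was at 0 in 3 libraries and Bglap and Dmp1 were too low to be tested. The summed stromal marker level was 37533 CPM in control replicate 2 and 24354 to 27288 CPM elsewhere. Col1a1, Col1a2 and Col3a1 made up most of that sum, with 16326, 13382 and 6416 CPM in control replicate 2. Cxcl12 and Thy1 were also highest there, whereas Prrx1, Lepr, Eng, Nt5e and Ly6a were not. Ly6a was lowest there (28.2 CPM against 46.7 to 51.6 CPM), as was Eng (108.1 CPM against 112.4 to 139.2 CPM). The summed neutrophil marker level was 946.0 CPM in control replicate 2 against 1908 to 2749 CPM elsewhere. The part of these markers in the Vegfa values was not tested.

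Pgf, which acts through FLT1 (chromosome 12, 85166635 to 85177790, minus strand), had 67.7 and 95.6 CPM in control replicates 1 and 2, against 74.7 and 94.7 CPM under the rhebCKO label. Both replicates 2 were above both replicates 1, and the groups overlapped. The log2 fold change was 0.05 (SE 0.24, 95% interval -0.50 to 0.61, adjusted p = 1.00 by edgeR), with log2 ratios of 0.14 and -0.01 within replicates 1 and 2. Vegfb, known for roles in fatty acid handling by endothelium (chromosome 19, 6982473 to 6987651, minus strand), showed the same order, with 16.1 and 20.96 CPM in control replicates 1 and 2, against 16.7 and 19.8 CPM under the rhebCKO label. Its log2 fold change was -0.03 (SE 0.26, 95% interval -0.64 to 0.58, adjusted p = 1.00 by edgeR), with log2 ratios of 0.05 and -0.08 within replicates 1 and 2. Vegfc, the lymphangiogenic ligand of FLT4 (chromosome 8, 54077606 to 54187096, plus strand), had 4.11 and 5.58 CPM in control replicates 1 and 2, against 2.74 and 5.07 CPM under the rhebCKO label, from 48 to 106 counts. The rhebCKO replicate 1 was lowest, with a Poisson interval of 2.02 to 3.63 CPM that meets the 3.24 to 5.14 CPM of control replicate 1. The log2 fold change of Vegfc was -0.31 (SE 0.42, 95% interval -1.27 to 0.65, adjusted p = 1.00 by edgeR), and -0.57 and -0.14 within replicates 1 and 2.

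Flt1, the decoy receptor (chromosome 5, 147561604 to 147726011, minus strand), had the smallest highest-to-lowest ratio of the 10 genes. It had 11.6 and 13.0 CPM in control replicates 1 and 2, against 12.4 and 13.2 CPM under the rhebCKO label, a highest-to-lowest ratio of 1.13, and Poisson intervals that all overlap (10.1 to 15.0 CPM from the lowest to the highest bound). Its log2 fold change was 0.06 (SE 0.26, 95% interval -0.54 to 0.66, adjusted p = 1.00 by edgeR), with log2 ratios of 0.10 and 0.03 within replicates 1 and 2. The ratio of Vegfa to Flt1 in RPKM was 48.0 and 74.0 in controls and 52.9 and 51.3 in the libraries labelled rhebCKO, so that the groups overlapped and control replicate 2 was again the high one.

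**Figure D3:**
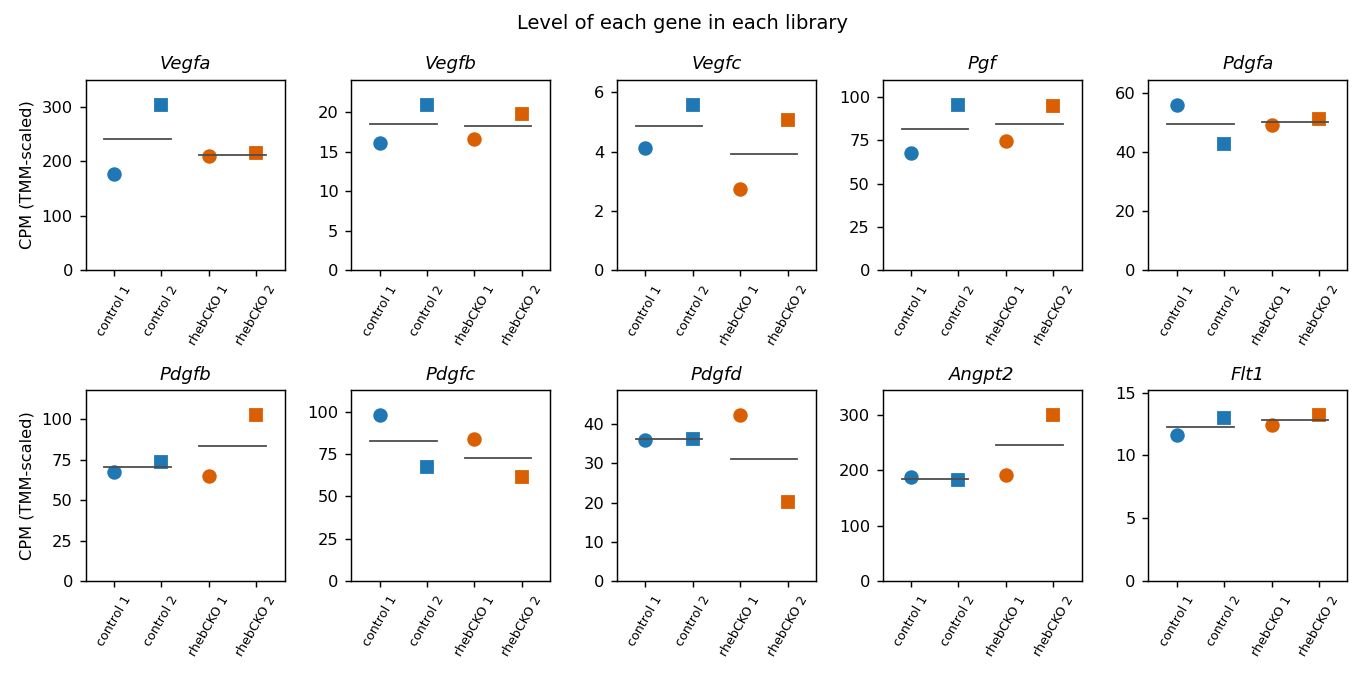
Level of each of the 10 genes in CPM (vertical axis, starting at 0, own scale per panel) in the 4 libraries; blue marks controls, orange the libraries labelled rhebCKO, circles replicate 1, squares replicate 2, and lines the group means. Angpt2 and Pdgfb are highest and Pdgfd lowest in rhebCKO replicate 2, and Vegfa is highest in control replicate 2.

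Angpt2, the angiopoietin that endothelial cells release during vessel remodelling (chromosome 8, 18690263 to 18741562, minus strand, overlapping Mcph1 on the plus strand with 0 shared exon bases), was the gene with the smallest p among the 10. It had 186.7 and 181.9 CPM in control replicates 1 and 2, against 191.0 and 298.6 CPM under the rhebCKO label. The counting intervals of rhebCKO replicate 1 (184.5 to 197.5 CPM) and control replicate 1 (180.6 to 193.0 CPM) overlapped, and rhebCKO replicate 2 was 1.56-fold above the next library. The log2 fold change of Angpt2 was 0.41 (SE 0.26, 95% interval -0.19 to 1.00, unadjusted p = 0.151, adjusted p = 1.00 by edgeR). It was 0.03 within replicate 1 and 0.71 within replicate 2, and 0.07 over all libraries but rhebCKO replicate 2. By the distance between log2 CPM values centred on each gene's mean over the 4 libraries, the nearest of 10178 protein-coding genes were Kifc5b (distance 0.0475), Ap5b1 (0.0626) and Vps51 (0.0648), and 70 genes lay within 0.2. With 4 libraries such likeness describes the shape set by 1 high library.

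The summed level of endothelial markers was also highest in rhebCKO replicate 2, as were 7 of the 10 markers; Emcn was highest in control replicate 1, Tek in rhebCKO replicate 1 and Cldn5 in control replicate 2. Of the 10 listed endothelial markers, all detected, 9 had higher fitted values in the libraries labelled rhebCKO, 5 without overlap (10.8% of all tested genes lay above in this way), and their summed level was 846.7 and 994.2 CPM in control replicates 1 and 2, against 1037 and 1252 CPM under the rhebCKO label. Of the 8 mural markers, all detected, 5 had higher fitted values in the libraries labelled rhebCKO, 2 of them without overlap, and 3 had lower ones. Their members differed in pattern: Cspg4, a pericyte proteoglycan, was highest in rhebCKO replicate 2 (81.6 CPM against 30.5 to 46.0 CPM), whereas Rgs5, a pericyte regulator of G-protein signalling, was highest in control replicate 2 (59.2 CPM, against 21.1 CPM in rhebCKO replicate 2). The mural sum of 3766 to 4140 CPM consisted mostly of Acta2, the smooth muscle actin gene, with 3106 to 3678 CPM. Their part in the Angpt2 values was not tested.

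Among the PDGF ligands, Pdgfb, whose dimer binds both PDGF receptors (chromosome 15, 79995874 to 80014977, minus strand), had 67.2 and 73.8 CPM in control replicates 1 and 2, against 64.7 and 102.3 CPM under the rhebCKO label. The libraries labelled rhebCKO were thus the lowest and the highest of the 4. The log2 fold change of Pdgfb was 0.24 (SE 0.25, 95% interval -0.34 to 0.82, adjusted p = 1.00 by edgeR), -0.06 within replicate 1 and 0.47 within replicate 2, and -0.11 without rhebCKO replicate 2. Platelets and macrophages are known sources of PDGF-B. The summed macrophage marker level was 11820 and 8417 CPM in control replicates 1 and 2, against 9109 and 11435 CPM under the rhebCKO label. The summed level of the 10 megakaryocyte and platelet markers, all detected, was 348.4 and 342.0 CPM in control replicates 1 and 2, against 272.7 and 368.4 CPM under the rhebCKO label. Of those 10 markers 9 had lower fitted values in the libraries labelled rhebCKO, 6 without overlap (11.3% of all tested genes lay below in this way). For both sums the order within the rhebCKO group was that of Pdgfb and the order within the controls was the opposite. Most of the macrophage sum was Lyz2, and some single markers differed. Mrc1 had 672.2 and 538.6 CPM in rhebCKO replicates 1 and 2. In control replicates 1 and 2, C1qa had 340.2 and 470.7 CPM, C1qc 449.0 and 466.0 CPM and Itga2b 24.7 and 39.7 CPM. The part of these markers in the Pdgfb values was not tested.

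Pdgfd, a ligand of PDGFRB that is activated by proteolysis (chromosome 9, 6168584 to 6378850, plus strand), went the other way in the same library. It had 36.1 and 36.3 CPM in control replicates 1 and 2, against 42.3 and 20.2 CPM under the rhebCKO label, so that rhebCKO replicate 2 was 1.78-fold below the next lowest. The Poisson interval of that library, 18.2 to 22.5 CPM, did not meet those of the others, which began at 33.4 CPM. The log2 fold change of Pdgfd was -0.21 (SE 0.34, 95% interval -1.0 to 0.58, adjusted p = 1.00 by edgeR), 0.23 within replicate 1 and -0.84 within replicate 2, and 0.24 without rhebCKO replicate 2. Pdgfc, also activated by proteolysis (chromosome 3, 81036416 to 81214040, plus strand), had 97.9 and 67.3 CPM in control replicates 1 and 2, against 84.0 and 61.4 CPM under the rhebCKO label. Both replicates 1 were above both replicates 2, the reverse of the order of Pgf and Vegfb. Its log2 fold change was -0.18 (SE 0.26, 95% interval -0.78 to 0.41, adjusted p = 1.00 by edgeR), -0.22 and -0.13 within replicates 1 and 2. Pdgfa, whose homodimer acts on PDGFRA (chromosome 5, 138976014 to 138997370, minus strand), had 56.0 and 42.6 CPM in control replicates 1 and 2, against 49.2 and 51.2 CPM under the rhebCKO label, a log2 fold change of 0.03 (SE 0.22, 95% interval -0.49 to 0.54, adjusted p = 1.00 by edgeR). Its ratio was -0.19 within replicate 1 and 0.26 within replicate 2 on the log2 scale. Exons of Pdgfa share 813 bases with the antisense gene 6330403L08Rik, which had 185 to 314 counts, and the library kit does not mark strand. Exons of Pdgfc share 147 bases with Gm16000, which had at most 1 count.

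The replicate numbers ordered more of these genes than the groups did, as was also so over all tested genes. Both replicates 2 were above both replicates 1 for 6 of the 10 genes (Vegfa, Vegfb, Vegfc, Pgf, Pdgfb and Flt1) and below for 1 (Pdgfc). Over all tested genes this was so for 26.5% and 26.0%, whereas the groups lay apart for 10.8% (rhebCKO above) and 11.3% (rhebCKO below). The replicate numbers also go with the Xist and Ddx3y counts, and the part of that in this order was not tested. The sign of the within-replicate ratio was opposite in replicates 1 and 2 for 6 genes and the same for 4 (Vegfc and Pdgfc below 0, Angpt2 and Flt1 above 0).

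**Figure D4:**
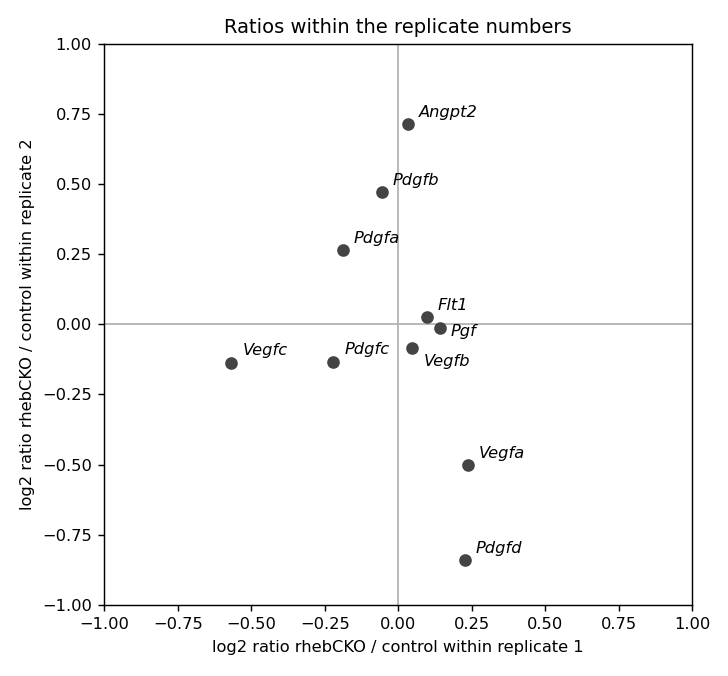
Log2 ratio of the library labelled rhebCKO to the control (CPM + 0.1) within replicate 1 (horizontal axis) and replicate 2 (vertical axis), 1 point per gene. Points in the upper left and lower right have opposite signs, with Pdgfd (0.23 and -0.84) and Vegfa (0.24 and -0.50) lowest on the vertical axis among those above 0 on the horizontal one.

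The make-up of each ligand family, as shares of its summed RPKM, also overlapped between the groups. Vegfa made up 54.1% and 59.5% of VEGF family RPKM in controls and 56.7% and 51.6% in the libraries labelled rhebCKO. Pgf followed with 27.6% to 33.6% over the 4 libraries, then Vegfb with 10.9% to 13.1% and Vegfc with 1.30% to 2.20%. The summed VEGF family level was 76.4 and 119.3 RPKM in controls and 86.0 and 97.1 RPKM in the libraries labelled rhebCKO. Among the PDGF ligands no gene led in all libraries. Pdgfb had 24.9% and 31.6% in controls and 25.4% and 41.3% in the libraries labelled rhebCKO, while Pdgfd had 17.7% and 20.5% in controls and 21.9% and 10.8% in the libraries labelled rhebCKO. The PDGF sum lay between 56.1 and 64.8 RPKM in the 4 libraries.

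**Figure D5:**
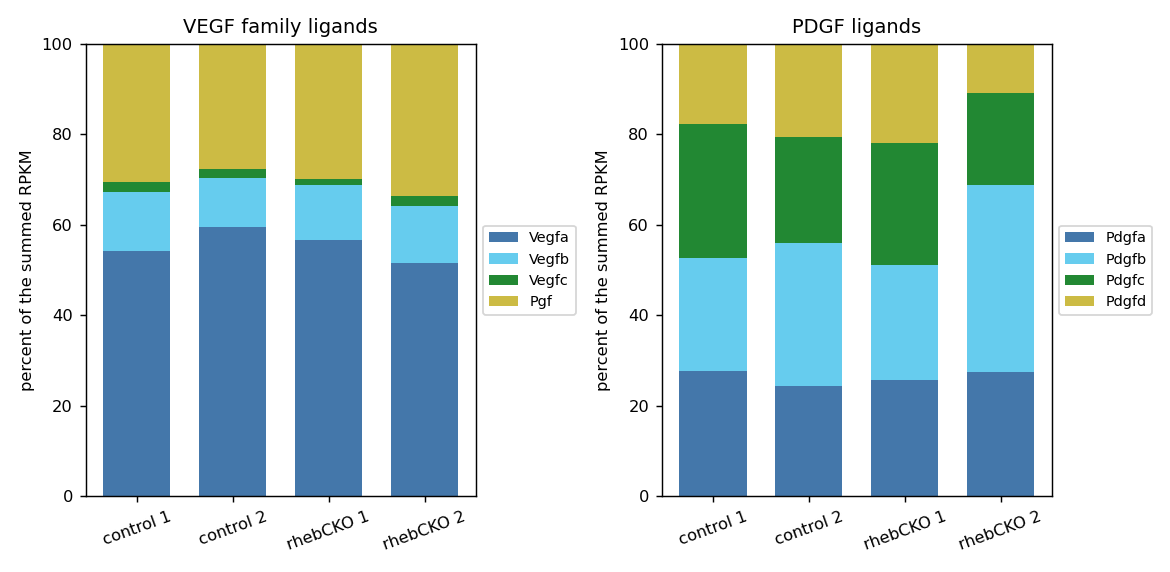
Share of each ligand in the summed RPKM of its family (percent, stacked bars from 0 to 100) in each library, VEGF family on the left and PDGF on the right. Vegfa holds at least 51.6% of its family in each library, and in rhebCKO replicate 2 Pdgfb is at 41.3% and Pdgfd at 10.8%.

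The other genes of these pathways were not called either. Of 56 genes in 7 pathway lists, all tested, edgeR called 0 and DESeq2 0; 32 had higher and 24 lower fitted values, with a median log2 fold change of 0.04, and 1 had an unadjusted p under 0.05, against 1.86% of all tested genes. The groups did not overlap for 9 genes with the libraries labelled rhebCKO above and for 3 with them below, against 10.8% and 11.3% of all tested genes. In the receptor list 6 of 10 were higher and 4 lower (median log2 fold change 0.21). Ptprb, the endothelial phosphatase that restrains TEK and KDR signalling, had 27.7 and 25.4 CPM in control replicates 1 and 2, against 41.1 and 42.4 CPM under the rhebCKO label (edgeR log2 fold change 0.65 with SE 0.22, unadjusted p = 0.0176, adjusted p = 1.00). Flt4, the receptor of VEGF-C, had 19.1 and 24.0 CPM in control replicates 1 and 2, against 25.8 and 35.1 CPM under the rhebCKO label (log2 fold change 0.50, SE 0.27). Pdgfrl, a PDGF receptor-like gene, had 25.2 CPM in control replicate 2 and 7.03 to 8.51 CPM elsewhere.

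The receptors that these ligands bind, chosen after their values were seen, were at very different levels. Pdgfrb had 78.1 and 139.4 RPKM in controls and 107.0 and 108.6 RPKM in the libraries labelled rhebCKO, above each of the 10 ligand and decoy genes within every library. Pdgfra, with 3.30 and 10.2 RPKM in controls and 4.87 and 4.01 RPKM in the libraries labelled rhebCKO, lay below Pdgfrb in every library and was highest in control replicate 2. Kdr, the main signalling receptor of VEGF-A, had 7.90 and 11.2 RPKM in controls and 11.4 and 12.9 RPKM in the libraries labelled rhebCKO, without overlap (edgeR log2 fold change 0.35 with SE 0.23, adjusted p = 1.00). The co-receptor Nrp1 had 22.6 and 21.7 RPKM in controls and 28.5 and 27.0 RPKM in the libraries labelled rhebCKO, also without overlap (edgeR log2 fold change 0.32 with SE 0.20, adjusted p = 1.00). For the co-receptor Nrp2 the groups overlapped (mean 43.2 RPKM, edgeR log2 fold change -0.04 with SE 0.25). They also overlapped for Tek, the receptor of angiopoietin 2 (mean 2.83 RPKM, edgeR log2 fold change 0.25 with SE 0.27). Of the 10 genes in the receptor list, 4 lay above without overlap, 0 lay below and 6 overlapped. Over all tested genes 10.8% lay above in this way.

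VEGF response genes of endothelium had 5 of 7 at higher fitted values (median 0.14). Esm1, an endothelial tip cell gene, had 95.4 and 96.6 CPM in control replicates 1 and 2, against 119.0 and 140.0 CPM under the rhebCKO label (edgeR log2 fold change 0.43 with SE 0.19, unadjusted p = 0.0578, adjusted p = 1.00), Apln, a vascular peptide ligand, had a fitted log2 change of 0.31 (SE 0.24), and Egr3, an immediate early gene, one of 0.18 (SE 0.33). Of the hypoxia targets 10 of 15 had higher and 5 lower values (median 0.09). The glucose transporter gene Slc2a1 had 119.3 CPM in rhebCKO replicate 2 and 67.2 to 69.2 CPM in the other libraries, and Egln3, an oxygen-sensing hydroxylase gene, 6.41 RPKM there against 3.15 to 4.13 RPKM. Pfkfb3, a glycolytic regulator, had a log2 fold change of 0.26 (SE 0.20). Of 7 HIF regulators 5 had higher and 2 lower values (median 0.04): Epas1, which encodes HIF-2 alpha, had a fitted log2 change of 0.42 (SE 0.25), Hif1a -0.18 (SE 0.28) and Vhl -0.07 (SE 0.21). Without rhebCKO replicate 2 the values of Hif1a and Vhl turned to 0.16 and 0.04. The 3 other ligands passed no test, and their groups overlapped. Their fitted log2 changes were -0.73 for Angpt4 (SE 0.41), -0.31 for Vegfd (SE 0.44) and -0.22 for Angpt1, the activating ligand of TEK (SE 0.38). Each sign turned without 1 library: Angpt4 was at 0.03 and Angpt1 at 0.27 without control replicate 2, and Vegfd at 0.19 without control replicate 1. Ligand-processing enzymes had 3 of 8 higher and 5 lower fitted values. Pcsk5, a proprotein convertase gene, was at -1.06 (SE 0.53), Plau at 0.22 (SE 0.22) and Plat at -0.14 (SE 0.22), the latter both plasminogen activators. Pcsk5 had 14.8 CPM in control replicate 2 and 4.44 to 4.80 CPM elsewhere, and its log2 change was 0.06 without that library, while that of Plau was 0.03 without rhebCKO replicate 2. Extracellular proteins that bind VEGF or PDGF had 3 of 6 higher and 3 lower fitted values. Thbs2, a matrix thrombospondin, was at -0.62 (SE 0.39), Adamts1, a matrix protease, at 0.13 (SE 0.19) and Sparc, a matrix glycoprotein, at -0.19 (SE 0.30). Without control replicate 2, Thbs2 was at -0.05, Sparc at 0.02 and Adamts1 at 0.06.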

How the data were processed

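The authors deposited 1 table of raw read counts by gene, covering 4 libraries, with exon positions and summed exon length. The submitters' processing notes name Trimmomatic, HISAT2, featureCounts and mm10 and give no versions. The annotation release and the treatment of multi-mapped reads were not given in the sources used here. All 10 genes had the same coordinates in GENCODE M21. TruSeq v2 mRNA libraries were made from Trizol-extracted RNA, per the labels' protocols.

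Groups and replicate numbers were read from the titles. The raw counts went into edgeR 4.0.16 under R 4.3.3 (filterByExpr, TMM scaling, quasi-likelihood F-test, group as the sole term, Benjamini-Hochberg adjustment over 14963 genes at 0.05). Standard errors were derived from the F statistic (absolute log2 fold change over its square root), and 95% intervals use edgeR's degrees of freedom. CPM and RPKM use TMM-scaled sizes of the tested genes. Within-replicate ratios used CPM + 0.1. Poisson intervals cover counting error only. Alternatives used DESeq2 1.42.0, limma-voom 3.58.1, other scalings and filters, a replicate block and leaving out each library. The edgeR test was also run on 5 simulated data sets, each with 200 changed genes of 14963. It recovered 21.2% of 2-fold, 77.0% of 4-fold and 92.7% of 8-fold changes at an adjusted p of 0.05. It made 10.8 false calls per data set on average. Most 2-fold changes would thus not be called with these libraries. Figures were drawn with matplotlib 3.10.9.

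The members and gene lists were chosen with earlier results of these data known. All 10 members are named, and up to 3 genes of each other pathway list with the smallest p and a mean log2 CPM of at least 1. Receptors named for the ligands they bind, the marker genes named and Rheb, Ucp1, Xist and Ddx3y as label checks are named too.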

Additional observations from a re-analysis of the deposited data

How the results depend on the processing

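None of the 10 genes was called under any of the alternatives run: DESeq2 or limma-voom in place of edgeR, scaling by median of ratios or by total counts, a low-count filter of 5 CPM in 2 libraries or none, omission of any 1 library, replicate number as a block, and a threshold of 0.1 on the adjusted p. Over all genes, DESeq2 called 18 against 0 by edgeR, and leaving out 1 library gave 0 to 196 calls (196 without control replicate 1 and 66 without control replicate 2; the lone control is then assumed to vary like the other group). The cause was not tested. Signs held for every gene under scaling, filter, tool and block. Leaving out 1 library moved the log2 fold change between -0.53 and 0.27 for Vegfa, -0.21 and 0.19 for Vegfb, -0.81 and 0.0597 for Vegfc, -0.18 and 0.34 for Pgf, -0.14 and 0.23 for Pdgfa, -0.11 and 0.53 for Pdgfb, -0.43 and 0.10 for Pdgfc, -0.85 and 0.24 for Pdgfd, and -0.0239 and 0.15 for Flt1, so the sign of these 9 genes depends on the libraries kept. For Angpt2 it stayed above 0 (0.07 to 0.69). Leaving out 1 library also leaves the groups unequal in replicate number, and so in the Xist and Ddx3y pattern. Other pseudocounts and total-count scaling moved no within-replicate ratio or level beyond its counting interval or SD. Shares of counts not divided by exon length moved 12 of 16 family shares by more than their SD.

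With replicate number as a block, edgeR called 0 genes, with 382 at an unadjusted p under 0.05 against 278 without it. The block fit gave Angpt2 a log2 fold change of 0.37 (unadjusted p = 0.133). Deviations of same-numbered libraries from their group means correlated at 0.25 over all tested genes and 0.18 over autosomal ones, in 2 pairs; the labels do not say that a number marks a shared litter or batch.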
